A study of Mus musculus with 12 samples.

Results

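The 28 genes described here were expressed in WT CD4+ T cells and had a DKO-moderate mean near the WT mean. Their DKO-severe mean was at least 2 times the DKO-moderate mean. They were chosen by their measured levels out of 26608 listed genes, in CPM (a gene's reads per 1000000 reads in genes of the library). A gene was taken when its WT mean was at least 0.5 CPM, its DKO-moderate mean lay at most 20% below and 25% above the WT mean, its DKO-severe mean was at least 5 CPM and at least 2 times the DKO-moderate mean, and each DKO-severe library lay above each WT and each DKO-moderate library. Since this selection used all 12 libraries, the levels of the 28 genes in the 3 groups are given below as a description, without tests.

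RNA was sequenced from CD4+ T cells sorted as YFP(FOXP3)- out of spleen combined with lymph nodes (cervical and inguinal) from mice aged 14 weeks, with 4 libraries per group. WT mice carried Foxp3Cre alone. DKO-moderate and DKO-severe mice carried Foxp3Cre with Tet2/3 flox/flox, one genotype that the study split by the number of leukocytes in spleen and lymph nodes. Cre and YFP were driven by Foxp3, a regulatory T (Treg) cell gene, so the sorted cells can hold conventional CD4+ T cells and former Treg cells that have lost FOXP3, and the study treats this Cre as possibly active outside Treg cells as well. In such a bulk sample, more cells of one type and more RNA per cell cannot be told apart. The labels number the libraries within a group without naming mice, so the spread and p-values given cover differences between these libraries.

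Tet2 and Tet3 are dioxygenases that oxidise 5-methylcytosine, mostly at CpG dinucleotides, as a step toward DNA demethylation. Without them, Treg cells are known to lose Foxp3 expression and take on features of effector T cells. The 28 genes are not one pathway. They comprise genes of the cytoskeleton and of small GTPases (Arap2, Vav2, Gsn, Sept11, Cep170) and proteins of endosomes and endocytosis (Snx9, Ehbp1, Wdfy2, Clcn5). Others are surface molecules (Itgam, Ccr8, Neto2, Vangl2, Smagp) and the adaptors Tirap and Gprin3. There are also genes of cell division, DNA repair and transcription (Kif23, Brca2, Mybl1), and enzymes or transporters of metabolism (Slc6a6, Agpat4, Crat, Adck3, Akr1c12, Sepn1). Crip2, Armcx4 and Trp53inp2 make up the rest.

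Libraries held 29254260 to 42133536 reads in genes, and 18.5% to 23.7% of the counted reads were outside genes or not assigned. The defining T cell genes were present throughout, with a summed level of 5240 to 5717 CPM in WT, 5772 to 6429 CPM in DKO-moderate and 4774 to 5541 CPM in DKO-severe libraries over the 9 of 12 listed markers found. Markers of other cells varied by library and by group. WT 3 and DKO-severe 2 had 555 and 977 CPM of 14 B cell markers against 7.64 to 302 CPM elsewhere, the 4 DKO-severe libraries all lying above the DKO-moderate range of 33.3 to 50.3 CPM, and DKO-severe 1 and DKO-severe 2 had 2468 and 959 CPM of 15 neutrophil markers against 9.27 to 49.4 CPM elsewhere. The 9 of 17 listed plasma cell markers found summed to 179 to 282 CPM in WT, 263 to 439 CPM in DKO-moderate and 634 to 852 CPM in DKO-severe libraries, which did not overlap the others. Irf4, Xbp1 and Txndc5 gave 365, 144 and 108 of the 734 CPM in DKO-severe 4, and 22.9, 45.8 and 70.2 of the 179 CPM in WT 1. Sdc1, Derl3 and Fkbp11 did not overlap either, at low levels. Igj did, at 75.9 CPM in WT 3 and 45.7 and 58.3 CPM in DKO-severe 3 and DKO-severe 4, as did Creld2. Prdm1 was at 11.2 to 14.9 CPM in WT and 8.89 to 29.5 CPM in DKO-severe libraries. Markers of basophils and mast cells summed to 4.20 to 6.42, 3.90 to 35.9 and 20.2 to 44.5 CPM in WT, DKO-moderate and DKO-severe libraries, the higher DKO-moderate values being those of DKO-moderate 2 and DKO-moderate 4. The part of these cells in the results below was not tested. Reads of 4 Y-linked genes were at or near 0 in WT 2, DKO-moderate 2, DKO-moderate 4 and DKO-severe 3, so both sexes occurred in each group. The targeted genes are deleted in cells that have expressed Foxp3. Tet2 was at 40.9 to 59.0 CPM in WT, 35.5 to 58.5 in DKO-moderate and 59.7 to 71.8 in DKO-severe libraries, and Tet3 at 158 to 199.8, 92.3 to 176 and 92.5 to 109 CPM. These counts cover the whole gene, so transcripts that lack only the floxed part can still be counted, and the values do not measure deletion. By qPCR, the study reported undetectable Tet2 in Tfh cells of DKO-severe mice. Without WT 3, DKO-severe 1 and DKO-severe 2, a choice made after seeing the data, the same limits gave 48 genes, 19 of them among the 28, and the DKO-severe mean was still at least 2 times the DKO-moderate mean in 26 of the 28.

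Most genes that set DKO-severe apart were already above WT in DKO-moderate cells. Leaving out the limit on DKO-moderate, 409 genes met the other limits. Of these, 373 lay above the band in DKO-moderate libraries, 28 within it and 8 below it. The median DKO-moderate to WT ratio was 2.83 over the 409 genes and 1.07 over the 28, where the band fixes it. The median DKO-severe to DKO-moderate ratio was 2.82 over the 409 and 2.26 over the 28.

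**Figure D1:**
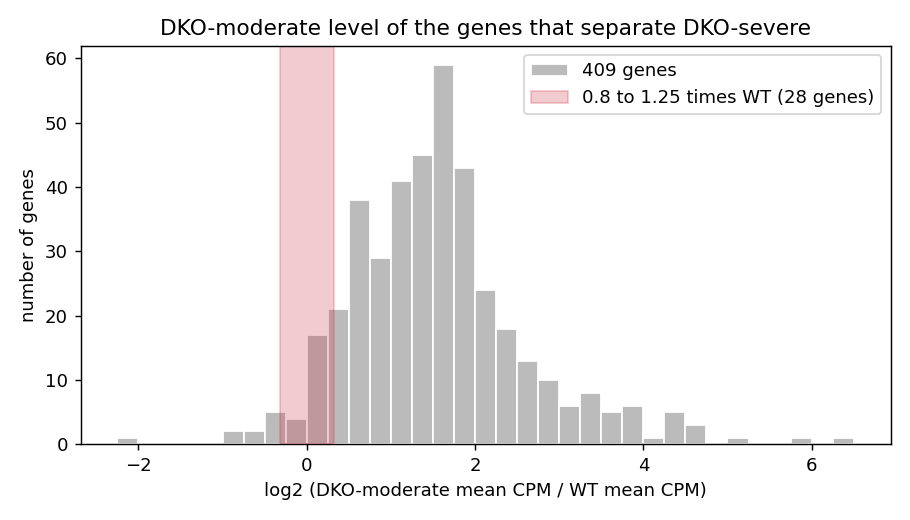
Histogram of 409 genes that met all limits except the one on DKO-moderate, by the log2 ratio of DKO-moderate to WT mean CPM (x axis) and number of genes (y axis). The shaded band, from 20% below to 25% above WT, holds the 28 genes, left of the bulk of the distribution, whose median ratio is 2.83.

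TET enzymes act on CpG, so the promoters of 6 of the genes are shown with each CpG in capitals, as windows from 250 bases before to 50 bases after the RefSeq start (assembly GRCm38.p6, the same coordinates as mm10), written 5′ to 3′ on the gene's strand. Arap2 (chr5:62766128-62766427, minus strand), Brca2 (chr5:150522371-150522670, plus strand) and Kif23 (chr9:61946750-61947049, minus strand) had CpG-rich windows. Itgam (chr7:128062390-128062689, plus strand), Ccr8 (chr9:120091883-120092182, plus strand) and Akr1c12 (chr13:4279350-4279649, minus strand) had CpG-poor windows.
Arap2: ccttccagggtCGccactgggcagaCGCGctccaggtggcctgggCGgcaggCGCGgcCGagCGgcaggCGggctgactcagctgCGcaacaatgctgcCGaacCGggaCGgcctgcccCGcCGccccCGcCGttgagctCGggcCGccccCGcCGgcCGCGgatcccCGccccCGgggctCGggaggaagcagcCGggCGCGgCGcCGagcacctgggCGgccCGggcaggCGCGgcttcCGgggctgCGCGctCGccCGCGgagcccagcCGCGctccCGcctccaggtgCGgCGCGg
Brca2: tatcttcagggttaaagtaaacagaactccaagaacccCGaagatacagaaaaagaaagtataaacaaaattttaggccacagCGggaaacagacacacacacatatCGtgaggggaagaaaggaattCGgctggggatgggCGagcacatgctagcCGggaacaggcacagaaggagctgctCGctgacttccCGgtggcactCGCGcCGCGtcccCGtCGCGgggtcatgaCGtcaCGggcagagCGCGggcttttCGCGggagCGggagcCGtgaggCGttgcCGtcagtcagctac
Kif23: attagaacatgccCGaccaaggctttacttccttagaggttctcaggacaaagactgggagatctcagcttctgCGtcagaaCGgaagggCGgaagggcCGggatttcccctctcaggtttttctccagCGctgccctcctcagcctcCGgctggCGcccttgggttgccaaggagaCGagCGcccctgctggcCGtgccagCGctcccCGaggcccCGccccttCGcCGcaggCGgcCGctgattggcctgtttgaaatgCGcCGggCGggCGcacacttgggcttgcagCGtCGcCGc
Itgam: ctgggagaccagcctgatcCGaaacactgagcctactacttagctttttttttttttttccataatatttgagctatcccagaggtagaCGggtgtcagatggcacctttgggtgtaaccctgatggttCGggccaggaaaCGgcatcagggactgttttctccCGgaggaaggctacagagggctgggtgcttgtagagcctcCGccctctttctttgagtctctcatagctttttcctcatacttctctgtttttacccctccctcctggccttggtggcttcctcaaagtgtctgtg
Ccr8: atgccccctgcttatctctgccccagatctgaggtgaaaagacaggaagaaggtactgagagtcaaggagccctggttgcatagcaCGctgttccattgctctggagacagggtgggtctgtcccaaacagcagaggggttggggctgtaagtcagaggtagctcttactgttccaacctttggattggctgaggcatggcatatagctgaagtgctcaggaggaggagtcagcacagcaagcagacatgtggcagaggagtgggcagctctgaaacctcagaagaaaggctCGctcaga
Akr1c12: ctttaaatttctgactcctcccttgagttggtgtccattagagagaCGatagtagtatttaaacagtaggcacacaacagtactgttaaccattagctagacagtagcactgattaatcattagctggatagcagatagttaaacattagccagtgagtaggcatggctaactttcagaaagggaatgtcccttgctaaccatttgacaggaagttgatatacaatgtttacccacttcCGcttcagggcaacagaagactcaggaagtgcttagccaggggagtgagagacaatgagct

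The Arap2 window held 47 CpG, those of Brca2 and Kif23 held 25 each, that of Itgam 6, and those of Ccr8 and Akr1c12 held 2 each. A window was found for 24 of the 28 genes, and none for Crat, Mybl1, Slc6a6 and Snx9. Taking for each gene the window with the highest ratio of observed to expected CpG, the median of that ratio was 0.799 over these 24 genes and 0.816 over the 8032 of 9998 genes with a window that met the WT and DKO-severe level limits alone. The ratio was under 0.4 in 4 of the 24 genes, or 16.7% (Itgam, Ccr8, Akr1c12 and Vav2). It was under 0.4 in 8.75% of the 8032 genes and in 49.0% of all 27025 genes with a window. Of the 373 genes above the band in DKO-moderate, 291 had a window, and 17.2% of these were under 0.4. The 6 windows shown thus hold a larger share of CpG-poor promoters than the 24 genes do. Promoters of both kinds occurred among the 28. The methylation of these windows was not measured here.

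Short motifs searched on both strands in any window of a gene gave no element found in most of the 24 genes. The E2F-type sequence TTTNGCG was found in 1 of 24 genes, Brca2, against 8.84% of the 8032 genes and 4.81% of all 27025 genes with a window. The cell-cycle element TTTGAA was found in 3 of 24, Kif23, Sept11 and Cep170, against 14.2% and 20.2%. The AP-1 sequence TGANTCA was found in 3 of 24, Arap2, Adck3 and Agpat4, against 5.58% and 8.97%. The CRE sequence TGACGTCA was found in 2 of 24, Brca2 and Trp53inp2, against 3.80% and 2.03%, and the STAT sequence TTCNNNGAA in none of 24, against 8.37% and 9.55%. An NF-kappaB motif was found in 5 of 24, Kif23, Vav2, Sepn1, Akr1c12 and Neto2, against 12.4% and 9.55%. The remaining searches gave 2 or 3 of the 24 genes each: TATAAA in 2 (7.92% of the 8032 and 15.7% of all), GTAAACA in 2 (3.24% and 4.05%), CACGTG in 3 (12.3% and 8.09%), ACGTG, which CACGTG contains, in 3 (30.4% and 21.8%), GAAANNGAA in 3 (8.79% and 9.76%) and GAGGAAG in 3 (16.1% and 15.4%). A match is a run of letters and says nothing of whether a factor binds there.

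**Figure D2:**
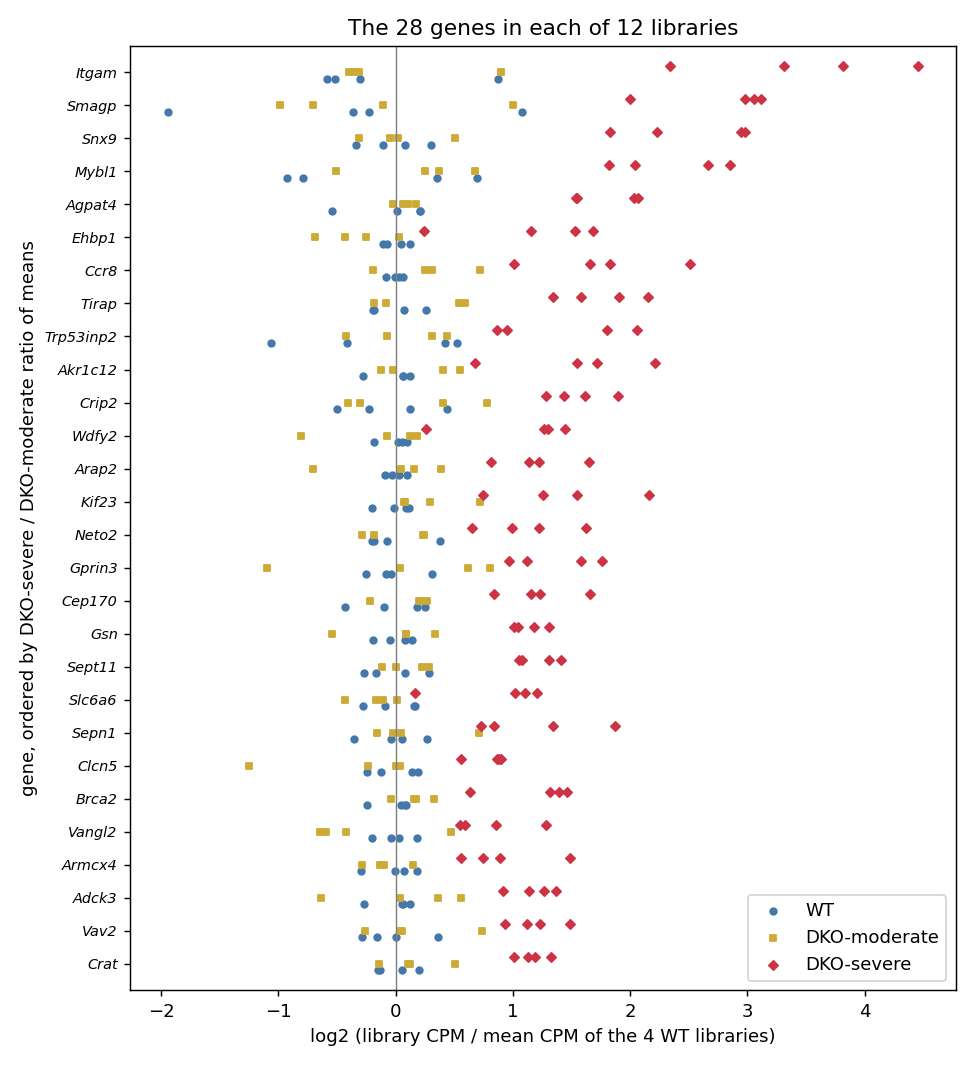
Each of the 28 genes (rows, ordered by the ratio of DKO-severe to DKO-moderate means) in each of the 12 libraries, as the log2 ratio of the library's CPM to the mean of the 4 WT libraries (x axis). Circles are WT, squares DKO-moderate and diamonds DKO-severe; WT and DKO-moderate points intermingle around 0, and the diamonds of the upper 5 genes lie furthest from them.

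The distance between DKO-severe and the other libraries varied widely among the 28 genes, as the plot of all genes in all libraries shows. The DKO-severe to DKO-moderate ratio of means ran from 2.001 in Crat to 12.1 in Itgam, and only Itgam, Smagp, Snx9, Mybl1 and Agpat4 reached 3. The DKO-severe to WT ratio was under 2 in Clcn5 (1.75), Vangl2 (1.80), Slc6a6 (1.90) and Armcx4 (1.95). The lowest DKO-severe library was 2.72 times the highest other library in Itgam, 2.51 times in Agpat4, 2.49 times in Snx9 and 2.18 times in Mybl1. It was 1.004 times in Slc6a6, 1.01 times in Sepn1 and 1.02 times in Kif23, where the groups all but touch. Libraries spread more in both DKO groups than in WT, the median coefficient of variation over the 28 genes being 14.9% for WT, 25.6% for DKO-moderate and 26.9% for DKO-severe. DKO-severe 2 was the lowest DKO-severe library in 15 of the 28 genes and the highest in 1, Mybl1. DKO-moderate 2 was the highest DKO-moderate library in 15 genes, and DKO-moderate 4 the lowest in 14.

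In a fit across all 16035 genes tested (edgeR, TMM scaling, adjusted p under 0.05), 26 of the 28 were called higher in DKO-severe than in WT, all but Clcn5 and Vangl2, where 26.6% of all genes tested were. In DKO-severe against DKO-moderate, below named the second step, 27 were called higher, all but Gprin3, where 9.41% of all genes were. None was called in DKO-moderate against WT, below named the first step, where 12.3% of all genes were called higher and 4.74% lower. The selection used these contrasts, so nothing is read from these counts. Of all genes tested, 25.9% were called lower in DKO-severe than in WT and 10.7% lower at the second step. Counts for families and lists below stand beside these shares. The choice of scaling bears on the set itself: TMM factors were 0.922 to 0.950 in WT and 1.05 to 1.09 in DKO-severe libraries, so that CPM by library size placed the median gene 0.18 higher in DKO-severe than in WT on the log2 scale, against -0.01 with TMM. With TMM-scaled CPM the same limits kept 12 of the 28 genes, namely Arap2, Gsn, Itgam, Cep170, Snx9, Agpat4, Tirap, Ccr8, Akr1c12, Crip2, Neto2 and Trp53inp2. Of the 16 not kept, 10 fell under the 2-fold limit by a small margin, with ratios between 1.86 in Crat and 1.995 in Sept11.

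Among the regulators of the cytoskeleton and of small GTPases, Arap2, a GTPase-activating protein for Arf proteins that binds phosphoinositides (chr5:62602445-62766159, minus strand), was at 149, 169.7, 162 and 155 CPM in the WT libraries, 177, 208, 164 and 97.4 CPM in DKO-moderate and 498, 279, 371 and 349 CPM in DKO-severe. DKO-moderate 4 lay below all WT libraries and DKO-moderate 1 and DKO-moderate 2 above them, so the group means, 159 ± 8.93 and 162 ± 46.5 CPM (SD), came out alike while the DKO-moderate libraries differed by more than 2-fold. Relative to TMM-scaled libraries the DKO-severe to DKO-moderate log2 difference was 1.107 ± 0.22 (SE). None of its paralogs Arap1 and Arap3 or of Arf5, Arf6 and Rhoa passed the test in any comparison. Arf1, one of the Arf GTPases, was above WT in DKO-severe libraries (log2 fold change 0.30 ± 0.07, adjusted p = 0.00523).

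Vav2, an exchange factor that loads small GTPases, was at 9.05, 9.91, 14.1 and 11.03 CPM in WT, 11.3, 18.3, 11.4 and 9.20 CPM in DKO-moderate and 25.9, 21.1, 30.9 and 23.9 CPM in DKO-severe libraries. DKO-moderate 2 was the highest library below the DKO-severe range. Its paralogs were tested without having been selected: Vav1, the main Vav protein of T cells, fell at the second step (log2 fold change -0.36 ± 0.09, adjusted p = 0.0151) and was below WT in DKO-severe libraries (-0.48 ± 0.09, adjusted p = 0.000646). The first of these calls was lost in 2 of 17 other fits (adjusted p of at most 0.0722). Only 41 of the tests named in the text were put through these fits, so a call without such a count may not have been checked. Vav3 rose against WT by 0.68 ± 0.14 (adjusted p = 0.00139), but its step from DKO-moderate, 0.37 ± 0.14 (adjusted p = 0.0757), did not pass the test. The Vav1 mean went from 247 ± 15.99 CPM in WT to 201 ± 14.7 CPM in DKO-severe libraries (SD).

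Gsn encodes gelsolin, which severs and caps actin filaments (chr2:35256380-35307892, plus strand). It was at 61.1, 50.5, 63.8 and 56.05 CPM in WT, 39.8, 72.9, 61.4 and 61.4 CPM in DKO-moderate and 119, 131, 143 and 116 CPM in DKO-severe libraries, a DKO-severe group with a coefficient of variation under 10%. Of the 7 other gelsolin family genes tested, Capg and Flii rose in DKO-severe against DKO-moderate. Capg, an actin-capping protein, rose at both steps, by 1.13 ± 0.19 (adjusted p = 0.00186) in DKO-moderate against WT and by 0.95 ± 0.18 (adjusted p = 0.00676) in DKO-severe against DKO-moderate.

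Sept11 encodes a septin, a GTP-binding protein of cytoskeletal filaments. Its levels were 54.9, 58.9, 80.8 and 70.1 CPM in WT, 77.5, 66.2, 80.6 and 60.9 CPM in DKO-moderate and 139.8, 137, 175 and 164 CPM in DKO-severe libraries. Of the 10 other septins tested, 6 were higher and 2 lower in DKO-severe than in WT, beside 26.6% and 25.9% of all genes. In DKO-moderate, 4 were higher than in WT. Sept2 rose at both steps, by 0.31 ± 0.07 (adjusted p = 0.0144) and then 0.33 ± 0.07 (adjusted p = 0.0111). Sept5 rose from 0.241 ± 0.170 CPM in WT to 0.988 ± 0.322 CPM in DKO-moderate and 6.52 ± 3.29 CPM in DKO-severe libraries, with log2 fold changes of 1.92 ± 0.50 (adjusted p = 0.0204), lost in 4 of 17 other fits with adjusted p up to 0.0667, and 2.63 ± 0.48 (adjusted p = 0.00539). Sept4 had no called first step, -0.46 ± 0.39 (adjusted p = 0.44), and a called second one, 2.31 ± 0.40 (adjusted p = 0.00468), at levels under 1 CPM in WT and DKO-moderate. Sept1 and Sept6 fell from DKO-moderate to DKO-severe, with log2 fold changes of -0.51 ± 0.10 (adjusted p = 0.00688) and -0.37 ± 0.08 (adjusted p = 0.00866).

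Cep170, a centrosomal protein that binds microtubules, was at 17.2 to 27.5 CPM in WT, 19.9 to 27.9 CPM in DKO-moderate and 41.4 to 73.1 CPM in DKO-severe libraries. Crip2, a small LIM domain protein, was at 2.02 to 3.88, 2.17 to 4.93 and 6.98 to 10.7 CPM in the same order. Its paralog Crip1 was lower in DKO-moderate than in WT (-0.48 ± 0.15, adjusted p = 0.0479), a call close to the threshold of 0.05. It passed no test in DKO-severe. In a list of 35 actin and tubulin genes, none of which is among the 28, 7 were called higher and 0 lower in DKO-moderate against WT, and 12 higher and 4 lower in DKO-severe against DKO-moderate. The median log2 fold change of the list was 0.17 at the first step and 0.33 at the second, beside 0.00 and -0.03 over all genes tested.

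Of the endosomal and endocytic genes, Snx9, a sorting nexin that bends membranes and recruits dynamin at endocytic pits (chr17:5841329-5931954, plus strand), was at 6.51, 7.41, 8.66 and 5.55 CPM in WT, 7.15, 9.99, 6.81 and 5.66 CPM in DKO-moderate and 54.2, 33.003, 24.9 and 55.6 CPM in DKO-severe libraries. WT and DKO-moderate libraries overlapped, DKO-moderate 2 lying above every WT library, and the DKO-severe mean of 41.9 ± 15.3 CPM (SD) was 5.66 times the DKO-moderate mean. Snx9 met all limits in each of 12 selections that left out 1 library, with TMM factors and with DESeq2's size factors, as did Arap2 and Agpat4. Its relatives and partners gave other values. Snx18 fell in DKO-severe against WT (-0.53 ± 0.16, adjusted p = 0.0131), and so did its partners Dnm2, encoding dynamin (-0.47 ± 0.11, adjusted p = 0.00489), and Wasl, an activator of actin nucleation (-0.63 ± 0.15, adjusted p = 0.00372). Snx33 rose, by 0.68 ± 0.16 (adjusted p = 0.00336) against WT and 0.49 ± 0.16 (adjusted p = 0.0443) against DKO-moderate, the second call being lost in 12 of 17 other fits (adjusted p of at most 0.117).

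Ehbp1 links EHD proteins of recycling endosomes to actin. It was at 3.52, 3.84, 3.44 and 4.05 CPM in WT, 2.74, 3.12, 3.80 and 2.30 CPM in DKO-moderate and 8.27, 4.38, 11.95 and 10.7 CPM in DKO-severe libraries. DKO-severe 2 exceeded WT 4 only narrowly, and the DKO-moderate mean was 0.805 times WT, the lowest of the set. Its paralog and binding partners were raised already in DKO-moderate: Ehbp1l1, Ehd1, Ehd2 and Ehd4 were called higher at both steps, the first step of Ehd1 being lost in 6 of 17 other fits (adjusted p of at most 0.0971). Ehd2 went from 0.165 ± 0.0923 CPM in WT to 2.37 ± 1.81 CPM in DKO-moderate and 19.98 ± 5.38 CPM in DKO-severe libraries, with log2 fold changes of 3.69 ± 0.54 (adjusted p = 0.00104) and 3.02 ± 0.47 (adjusted p = 0.00354). Ehd4 rose by 1.10 ± 0.22 (adjusted p = 0.00594) and 1.19 ± 0.22 (adjusted p = 0.00561). Ehd3, with a WT mean of 180.3 ± 21.6 CPM, fell at the second step (-0.76 ± 0.20, adjusted p = 0.0221).

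Wdfy2, which binds phosphatidylinositol 3-phosphate on early endosomes, was at 11.2, 13.2, 12.9 and 13.6 CPM in WT, 12.1, 14.5, 13.8 and 7.28 CPM in DKO-moderate and 30.6, 15.2, 34.7 and 31.4 CPM in DKO-severe libraries. DKO-severe 2 lay just above DKO-moderate 2 while the other 3 DKO-severe libraries stood at about 30 CPM or more. None of Wdfy1, Wdfy3 and Wdfy4 passed the test against DKO-moderate. Clcn5, an endosomal chloride and proton exchanger on the X chromosome, was at 3.04 to 4.10 CPM in WT, 1.52 to 3.70 CPM in DKO-moderate and 5.29 to 6.72 CPM in DKO-severe libraries. Of 5 other CLC genes tested, 4 were lower in DKO-severe than in WT and 0 were higher, beside 25.9% and 26.6% of all genes. Among the lower ones were Clcn2 at -1.52 ± 0.23 (adjusted p = 0.000182) and Clcn6 at -1.03 ± 0.19 (adjusted p = 0.000749).

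**Figure D3:**
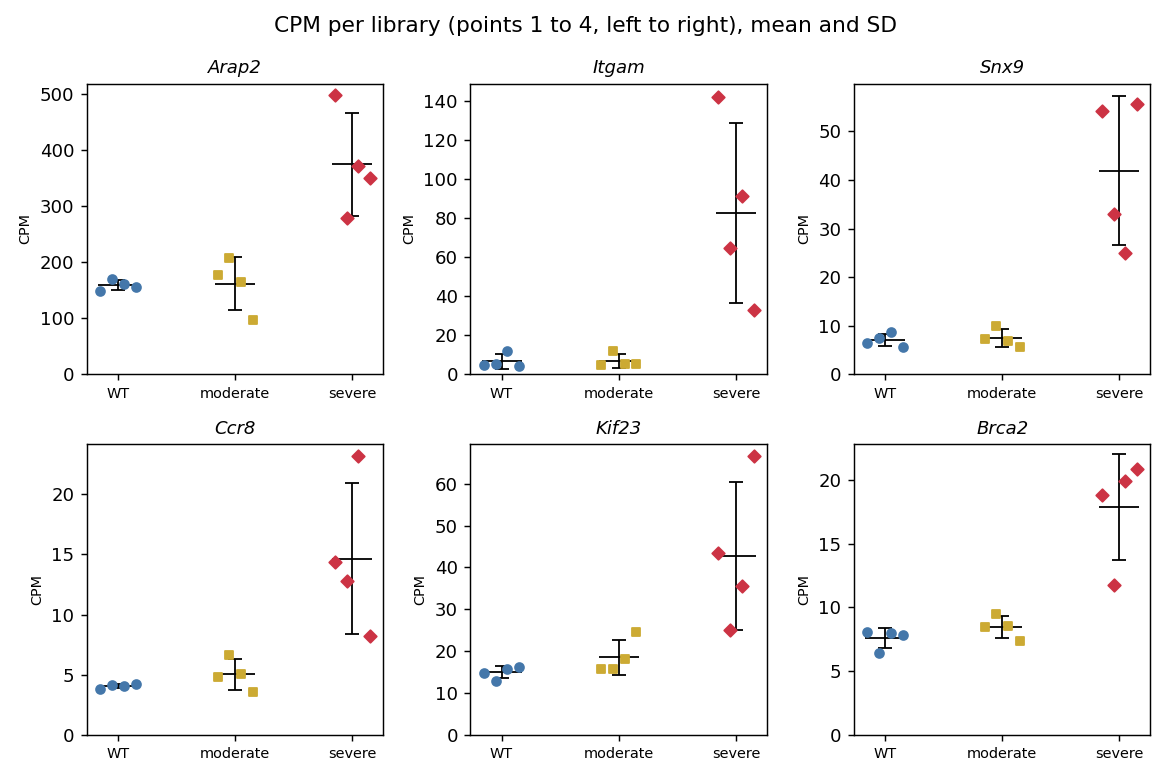
CPM (y axis, from 0) of Arap2, Itgam, Snx9, Ccr8, Kif23 and Brca2 in WT, DKO-moderate and DKO-severe libraries; the 4 points of a group are libraries 1 to 4 from left to right, the horizontal mark is the mean and the bar the SD. In Snx9 and Itgam the lowest DKO-severe point is more than 2 times the highest other point, and in Kif23 the highest DKO-moderate library, 24.5 CPM, lies just under the lowest DKO-severe one, 24.97 CPM.

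The surface molecules include Itgam, which encodes CD11b, the alpha chain that pairs with the beta-2 chain Itgb2 into an adhesion and complement receptor, best known from myeloid and NK cells (chr7:128062640-128118491, plus strand). It was at 4.53, 5.24, 11.9 and 4.31 CPM in WT, 4.91, 12.1, 5.10 and 5.22 CPM in DKO-moderate and 142, 64.5, 91.3 and 32.8 CPM in DKO-severe libraries, the largest ratio of the set. WT 3 and DKO-moderate 2 stood at more than 2 times the others of their groups, and the DKO-severe libraries spread more than 4-fold among themselves. The summed neutrophil markers of the 4 DKO-severe libraries were 2468, 959, 49.4 and 31.2 CPM, the monocyte and macrophage markers 562, 748, 241 and 178 CPM and the NK cell markers 84.7, 233, 129.6 and 102 CPM. DKO-severe 3 had 91.3 CPM of Itgam beside 49.4 CPM of neutrophil markers, with the neutrophil genes S100a8, S100a9 and Ngp at 4.34, 5.75 and 6.10 CPM. In DKO-severe 4 they were at 2.11, 1.93 and 2.34 CPM. Their highest values in a WT or DKO-moderate library were 0.896, 1.33 and 0.697 CPM, in DKO-moderate 2. In DKO-severe 1, with 142 CPM of Itgam, S100a8, S100a9 and Ngp were at 463, 519.7 and 565 CPM.

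Monocyte and macrophage markers moved with Itgam in part. They summed to 25.8, 54.99, 279 and 62.5 CPM over 17 of 18 listed genes in the WT libraries, highest in WT 3, and to 127, 180, 89.2 and 193 CPM in DKO-moderate libraries. DKO-severe 4, with 178 CPM of these markers, had 32.8 CPM of Itgam, and DKO-moderate 4, with 193 CPM of them, had 5.22 CPM. The single markers differed between these libraries. Ccr2 and Ly6c2 were at 60.5 and 15.2 CPM in DKO-severe 4 and 78.1 and 32.4 CPM in DKO-moderate 4, and C1qb at 6.98 and 9.50 CPM. Csf1r was at 14.1 CPM in DKO-severe 4 and 9.47 CPM in DKO-moderate 4, and Lyz2 at 25.8 and 17.97 CPM. NK cell markers summed to 25.1, 36.2, 58.98 and 49.98 CPM in WT and 86.1, 153, 75.6 and 221 CPM in DKO-moderate libraries. Klrb1c, which the study lists as a Tfh-related gene, gave 183 of the 221 CPM in DKO-moderate 4, so the sum does not measure NK cells alone. Tyrobp, of the same list, was at 1.13, 2.99, 0.332 and 3.79 CPM in DKO-moderate and 23.5, 20.4, 3.03 and 3.86 CPM in DKO-severe libraries. None of the 15 neutrophil or 17 monocyte markers was at 0 in all DKO-severe libraries. The share of Itgam reads that came from other cells was not tested. Over DKO-severe 3 and DKO-severe 4 alone, and without WT 3, the DKO-severe mean was 9.09 times the DKO-moderate mean, and the DKO-moderate mean was 1.46 times WT, outside the band.

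**Figure D4:**
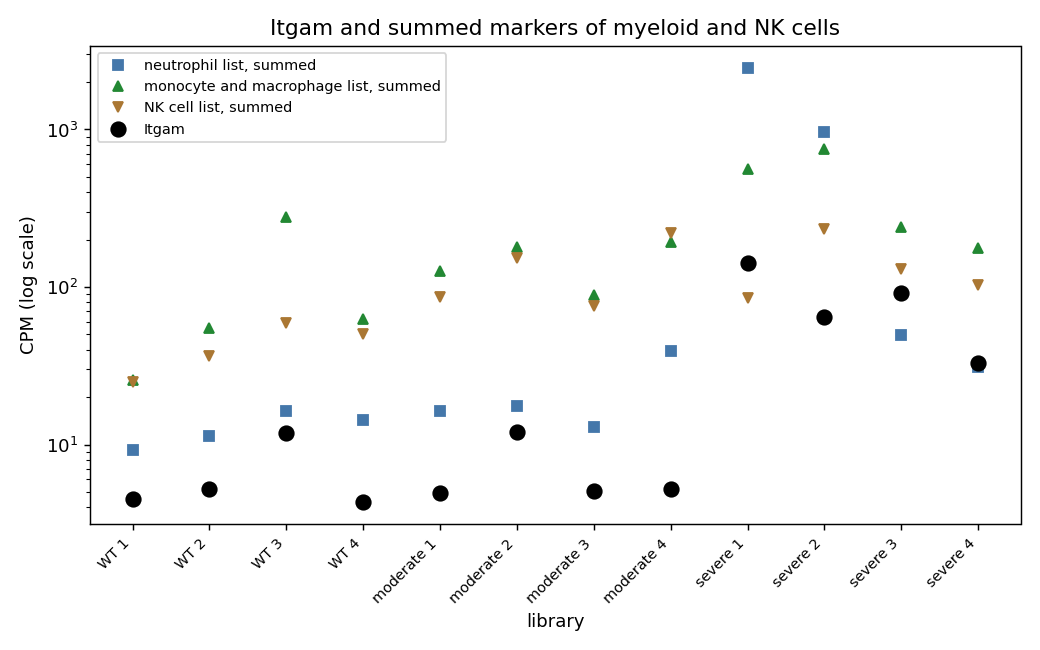
CPM per library on a log axis (y) for Itgam (circles) and for the summed markers of neutrophils (squares), monocytes and macrophages (upward triangles) and NK cells (downward triangles), with the 12 libraries along x. Itgam is above 30 CPM in all 4 DKO-severe libraries. Summed neutrophil markers exceed 50 CPM in DKO-severe 1 and DKO-severe 2 alone. In DKO-severe 3 and DKO-severe 4, Mmp9 gives 22.7 and 18.3 CPM of the sum, and the neutrophil gene Ltf is at 4.49 and 1.67 CPM. The highest Ltf value in a WT or DKO-moderate library is 0.199 CPM.

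The partner chain Itgb2 did not pass the test in any comparison, with means of 631 ± 42.3, 682 ± 51.004 and 651 ± 51.1 CPM (SD) in WT, DKO-moderate and DKO-severe. The alpha chain Itgal, which forms LFA-1 with Itgb2 on T cells, rose at the first step (0.70 ± 0.11, adjusted p = 0.00119) and did not pass the test at the second (0.13 ± 0.11, adjusted p = 0.375). Itgax and Itgad, neighbours of Itgam in the same gene cluster, passed no test. Icam2, a ligand of LFA-1, was lower at the first step (-0.32 ± 0.10, adjusted p = 0.0367), a call lost in 6 of 17 other fits (adjusted p of at most 0.106), and at the second (-0.62 ± 0.10, adjusted p = 0.00354). Of the 21 other integrin genes tested, 3 were higher and 2 lower in DKO-moderate than in WT, 8 were called above and 3 below WT in DKO-severe libraries, and 3 rose and 2 fell at the second step. Of all genes tested, 26.6% were called above and 25.9% below WT in DKO-severe libraries. Itgav rose at both steps (0.51 ± 0.13, adjusted p = 0.0195 and 0.74 ± 0.13, adjusted p = 0.00501) and Itga6 fell at both (-1.15 ± 0.30, adjusted p = 0.0219 and -1.10 ± 0.30, adjusted p = 0.025).

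Ccr8, a chemokine receptor of Treg and Th2 cells (chr9:120092114-120094906, plus strand), was at 3.82, 4.14, 4.04 and 4.23 CPM in WT, 4.83, 6.67, 5.03 and 3.55 CPM in DKO-moderate and 14.4, 12.8, 23.2 and 8.19 CPM in DKO-severe libraries. WT libraries were almost identical, and DKO-severe 3 stood well above the other 3 DKO-severe libraries. Its ligand gene Ccl1 passed no test in these cells. Ccl8 was called higher in DKO-severe than in WT (5.41 ± 1.27, adjusted p = 0.00378) and at the second step (3.32 ± 1.04, adjusted p = 0.0415). These calls rest on very few reads, with a mean of 0.00683 ± 0.0137 CPM in WT and 0.489 ± 0.484 CPM in DKO-severe libraries (SD). Ccr4, another receptor of Th2 and Treg cells, was already raised in DKO-moderate, from 19.5 ± 2.38 to 63.6 ± 13.3 CPM, a log2 fold change of 1.62 ± 0.18 (adjusted p = 0.000264), and rose again by 1.22 ± 0.18 (adjusted p = 0.00331). Ccr7, the homing receptor of naive T cells, fell at both steps, with log2 fold changes of -0.84 ± 0.14 (adjusted p = 0.00242) and -1.10 ± 0.14 (adjusted p = 0.0022).

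Of the 34 other chemokine and chemokine receptor genes tested, 7 were higher and 1 lower in DKO-moderate than in WT, 12 were called above and 2 below WT in DKO-severe libraries, and 5 rose and 2 fell at the second step. Of the 8 other Th2 genes tested, 3 were higher at the first step and 1 at the second. In DKO-severe libraries 7, all but Gata3, were called above WT, with a median log2 fold change of 2.92 over the 8. That median rests in part on genes with few WT reads. Il5, Areg, Il13 and Pparg had WT means of 0.0143, 0.180, 0.270 and 0.455 CPM. Their DKO-severe means were 0.324 ± 0.520, 5.82 ± 2.35, 5.98 ± 9.37 and 4.21 ± 3.55 CPM (SD). Il4 and Il1rl1 had WT means of 1.60 and 2.40 CPM. Il4 rose at the first step (2.05 ± 0.36, adjusted p = 0.00274) and did not pass the test at the second (-0.74 ± 0.34, adjusted p = 0.142), with 1.32 ± 0.35 (adjusted p = 0.00806) in DKO-severe against WT, and Gata3, the defining Th2 transcription factor, passed no test (log2 fold change -0.05 ± 0.11, adjusted p = 0.738 in DKO-severe against WT).

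Neto2 and Vangl2 are best known outside the immune system, as an auxiliary subunit of glutamate receptors and a planar cell polarity protein. Neto2 was at 3.25, 4.82, 3.52 and 3.22 CPM in WT, 4.38, 3.25, 4.34 and 3.03 CPM in DKO-moderate and 7.38, 8.63, 5.80 and 11.4 CPM in DKO-severe libraries. Vangl2 was at 2.71, 3.04, 3.17 and 3.53, then 2.32, 4.31, 1.99 and 2.06, then 4.55, 4.68, 5.62 and 7.57 CPM. In both, DKO-severe 4 was the highest library, and for Vangl2 the lowest DKO-severe library was 1.05 times DKO-moderate 2.

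The paralog of each had few WT reads and was higher in DKO-moderate libraries already. Neto1 was at 0.00649 ± 0.0130 CPM in WT, 2.61 ± 1.42 CPM in DKO-moderate and 16.1 ± 12.8 CPM in DKO-severe (SD), with log2 fold changes of 7.92 ± 1.19 (adjusted p = 0.00119) and then 2.55 ± 0.70 (adjusted p = 0.0244), the second lost in 5 of 17 other fits (adjusted p of at most 0.114). Vangl1 was at 0.0759 ± 0.0566, 4.43 ± 3.60 and 25.6 ± 10.7 CPM, with log2 fold changes of 5.71 ± 0.86 (adjusted p = 0.00115) and 2.46 ± 0.63 (adjusted p = 0.0189). Each fold change from WT rests on very few WT reads and depends on the prior count of the fit. Among the 13 planar cell polarity genes tested, 5 were lower and 2 higher in DKO-severe than in WT, beside 25.9% and 26.6% of all genes. Dvl2, a cytoplasmic transducer of the pathway, fell at both steps (-0.31 ± 0.08, adjusted p = 0.0151 and -0.48 ± 0.08, adjusted p = 0.00355), and Prickle3 fell at the second (-0.58 ± 0.14, adjusted p = 0.0141).

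Smagp, a small transmembrane glycoprotein of cell contacts (chr15:100621339-100636940, minus strand), had the lowest WT mean of the set. It was at 0.542, 0.595, 1.47 and 0.182 CPM in WT, 0.352, 1.39, 0.427 and 0.650 CPM in DKO-moderate and 6.05, 2.79, 5.80 and 5.51 CPM in DKO-severe libraries, which corresponds to 7 to 54 reads in WT, 14 to 42 in DKO-moderate and 84 to 230 in DKO-severe libraries. Its highest WT library was again WT 3, and its DKO-severe to DKO-moderate ratio of 7.14 rests on these small counts. Gprin3, a G protein-regulated protein of the GPRIN family, was at 11.1 to 16.3 CPM in WT, 6.14 to 23.01 CPM in DKO-moderate and 25.7 to 44.5 CPM in DKO-severe libraries. DKO-moderate 1 and DKO-moderate 3 lay close to the DKO-severe range while DKO-moderate 4 lay under all WT libraries. Gprin2 was the only other family member tested, at 0.0208 ± 0.0139 CPM in WT and 1.38 ± 0.407 CPM in DKO-severe.

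Of the genes of Toll-like receptor signalling, Tirap is the sorting adaptor that brings Myd88 to Tlr2 and Tlr4 (chr9:35184551-35200291, minus strand). It was at 4.39, 4.40, 5.27 and 5.99 CPM in WT, 4.41, 7.30, 4.72 and 7.58 CPM in DKO-moderate and 22.3, 12.7, 14.98 and 18.8 CPM in DKO-severe libraries, with DKO-moderate 2 and DKO-moderate 4 above all WT libraries. Among 20 Toll-like receptors and adaptors tested, 3 were higher in DKO-moderate than in WT and 2 rose at the second step, Ticam2 and Irak2.

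Tlr4 rose at the first step, from 1.12 ± 0.651 to 6.92 ± 5.38 CPM (2.53 ± 0.64, adjusted p = 0.018, lost in 3 of 17 other fits with adjusted p up to 0.0592), and reached 23.1 ± 7.93 CPM in DKO-severe libraries, with a second step of 1.65 ± 0.60 (adjusted p = 0.0709). Ticam2, the bridging adaptor that Tlr4 uses in place of Tirap from endosomes, rose at both steps, by 1.66 ± 0.47 (adjusted p = 0.0305), lost in 5 of 17 other fits with adjusted p up to 0.0821, and 2.37 ± 0.46 (adjusted p = 0.00688). Irak2, a kinase of the Myd88 complex, had a first step that did not pass the test (0.05 ± 0.09, adjusted p = 0.728) and a called second step (0.56 ± 0.09, adjusted p = 0.00355). Myd88 and Tlr2 passed no test, and Traf6 fell in DKO-severe against WT (-0.56 ± 0.14, adjusted p = 0.00503). Tlr4 is also a gene of myeloid cells, whose summed markers in each DKO-severe library are given with Itgam, and their part in these values was not tested.

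Among genes of cell division, DNA repair and transcription, Kif23 is the kinesin of centralspindlin, the complex that organises the spindle midzone in cytokinesis (chr9:61915905-61946774, minus strand). It was at 14.8, 12.9, 15.8 and 16.1 CPM in WT, 15.8, 15.7, 18.2 and 24.5 CPM in DKO-moderate and 43.5, 24.97, 35.7 and 66.7 CPM in DKO-severe libraries. DKO-severe 2 was 1.02 times DKO-moderate 4, the DKO-moderate mean lay just inside the upper limit of 25% above WT, and 6 of the 12 selections that left out 1 library kept the gene.

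The partners of Kif23 were higher already in DKO-moderate cells. Racgap1, the other subunit of centralspindlin, went from 19.9 ± 5.04 CPM in WT to 67.5 ± 3.96 CPM in DKO-moderate and 181 ± 44.1 CPM in DKO-severe libraries, with log2 fold changes of 1.68 ± 0.20 (adjusted p = 0.000342) and 1.32 ± 0.19 (adjusted p = 0.00332). Ect2, the exchange factor that centralspindlin recruits, rose by 1.10 ± 0.27 (adjusted p = 0.0157), a call lost in 1 of 17 other fits (adjusted p = 0.0541 without WT 1), and by 1.36 ± 0.27 (adjusted p = 0.00692). Of the 9 cytokinesis partners tested, 8 were higher in DKO-moderate than in WT, and all 9 rose at the second step. Kif20b was the exception, with a first step of 0.20 ± 0.15 (adjusted p = 0.398) and a second of 0.69 ± 0.15 (adjusted p = 0.0116). In a list of 35 proliferation genes that holds none of the 28, 28 rose at the first step and 31 at the second.

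Brca2 acts in the repair of DNA breaks by homologous recombination (chr5:150522630-150570329, plus strand). It was at 8.05, 6.40, 8.03 and 7.84 CPM in WT, 8.46, 9.49, 8.54 and 7.39 CPM in DKO-moderate and 18.8, 11.8, 19.9 and 20.9 CPM in DKO-severe libraries. DKO-severe 2 stood apart below the other 3 DKO-severe libraries, which were close together. Of 10 genes of homologous recombination tested, 5 were higher in DKO-moderate than in WT and 6 rose at the second step. Rad54l, a motor protein of this repair, rose by 1.63 ± 0.25 (adjusted p = 0.00139) and 1.35 ± 0.25 (adjusted p = 0.00554).

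Brca1 was called at the first step (0.68 ± 0.22, adjusted p = 0.0484), a call lost in 11 of 17 other fits with adjusted p up to 0.131, and at the second (1.39 ± 0.22, adjusted p = 0.00354). Bard1, the partner of Brca1, was not called at the first step (0.37 ± 0.20, adjusted p = 0.21) and was at the second (1.01 ± 0.20, adjusted p = 0.0066). Palb2, which joins Brca1 to Brca2, passed no test. Mybl1, the transcription factor A-Myb of germ cells and germinal centre B cells, was at 0.515, 0.565, 1.58 and 1.246 CPM in WT, 1.56, 1.26, 0.688 and 1.16 CPM in DKO-moderate and 4.03, 7.04, 3.45 and 6.20 CPM in DKO-severe libraries, from 19 to 62 reads in WT and DKO-moderate and from 118 to 241 in DKO-severe. DKO-severe 2, with the most B cell markers (977 CPM), was the highest. DKO-severe 4, with 204 CPM of these markers, most of it from Blk (125 CPM), had 6.20 CPM of Mybl1, and WT 3, with 555 CPM of B cell markers, had 1.58 CPM. Mybl2, the family member of the cell cycle, rose by 1.27 ± 0.30 (adjusted p = 0.014) and 1.87 ± 0.30 (adjusted p = 0.00402), and Myb rose at the first step alone (0.79 ± 0.15, adjusted p = 0.00506, then 0.22 ± 0.15, adjusted p = 0.304).

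**Figure D5:**
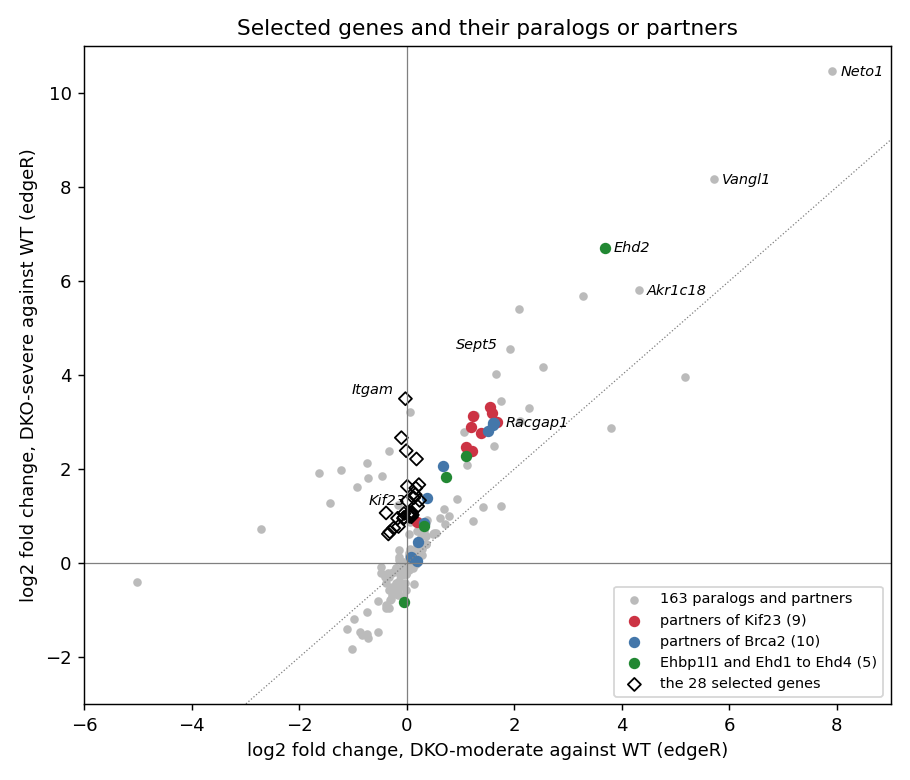
Log2 fold changes (edgeR) in DKO-moderate against WT (x) and DKO-severe against WT (y) for the 28 selected genes (open diamonds) and 163 paralogs and partners (points; partners of Kif23, of Brca2 and the EHD group in colour); the dotted line marks equal change. The selected genes line up near 0 on the x axis because they were chosen so, while Neto1, Vangl1, Ehd2, Akr1c18 and Racgap1 lie to the right.

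Over the 163 paralogs and partners tested for 26 of the 28 genes, 39 (23.9%) were higher and 8 (4.91%) lower in DKO-moderate than in WT, beside 12.3% and 4.74% of all genes. In DKO-severe against DKO-moderate, 35 (21.5%) were higher and 16 (9.82%) lower, beside 9.41% and 10.7%. These genes were listed by their names and roles after the 28 were known, and the cytokinesis and recombination genes alone supply 13 of the 39 first-step and 15 of the 35 second-step increases.

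Of the genes of metabolism and transport, Slc6a6 is the taurine transporter of the plasma membrane (chr6:91684053-91759066, plus strand). It was at 98.1, 117, 86.2 and 117 CPM in WT, 96.8, 106, 92.9 and 77.4 CPM in DKO-moderate and 242, 118, 212 and 225 CPM in DKO-severe libraries. DKO-severe 2 was level with WT 2 and WT 4, and the other 3 DKO-severe libraries stood well above it. The taurine synthesis genes Cdo1 and Csad passed no test, while the creatine transporter Slc6a8 rose at the first step (1.63 ± 0.33, adjusted p = 0.00566).

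Agpat4, an acyltransferase that makes phosphatidic acid (chr17:12118704-12219645, plus strand), was at 5.67, 3.87, 6.50 and 6.51 CPM in WT, 6.34, 5.54, 6.08 and 5.90 CPM in DKO-moderate and 23.7, 23.01, 16.4 and 16.4 CPM in DKO-severe libraries. The DKO-moderate libraries agreed within a coefficient of variation of 5.64%, and the DKO-severe libraries formed 2 pairs, DKO-severe 1 and 2 being higher than DKO-severe 3 and 4. Agpat2 rose in DKO-severe against WT (0.91 ± 0.18, adjusted p = 0.00118), and Agpat3 rose at the first step alone (0.36 ± 0.08, adjusted p = 0.0137, then 0.05 ± 0.08, adjusted p = 0.707). Agpat1 and Agpat5 passed no test.

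Crat, the mitochondrial carnitine acetyltransferase, had the most even DKO-severe group, at 4.93, 4.999, 6.31 and 5.71 CPM in WT, 5.89, 7.80, 5.98 and 4.98 CPM in DKO-moderate and 13.7, 11.1, 12.5 and 12.02 CPM in DKO-severe libraries, and lay just above the 2-fold limit. Cpt2, another carnitine acyltransferase of mitochondria, was called at the second step alone (0.36 ± 0.16, adjusted p = 0.135, then 0.49 ± 0.16, adjusted p = 0.0434), whereas the carnitine transporter Slc22a5 fell at the second step (-0.47 ± 0.12, adjusted p = 0.0212). Adck3, also named Coq8a, is a kinase-like protein of coenzyme Q synthesis and was at 14.7 to 19.4, 11.5 to 26.1 and 33.5 to 45.8 CPM in WT, DKO-moderate and DKO-severe libraries. Among 13 related kinases and coenzyme Q genes tested, 0 rose and 4 fell at the second step, among them Adck2 (-0.40 ± 0.08, adjusted p = 0.00935) and Coq2 (-0.44 ± 0.11, adjusted p = 0.0185).

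Akr1c12 is an aldo-keto reductase in a cluster of similar genes (chr13:4268176-4279433, minus strand). It was at 3.58, 2.71, 3.44 and 3.43 CPM in WT, 4.36, 3.02, 3.23 and 4.82 CPM in DKO-moderate and 15.3, 9.60, 10.8 and 5.25 CPM in DKO-severe libraries, with DKO-severe 4 close to DKO-moderate 4. Since the authors counted uniquely mapped reads, reads shared with near-identical copies are missing from these values. Akr1c13, a close copy, passed no test (0.11 ± 0.27, adjusted p = 0.792 at the second step). Akr1c18, which inactivates progesterone, was raised at the first step, from 0.406 ± 0.199 CPM to 8.76 ± 9.60 CPM with a wide spread, and reached 26.03 ± 5.30 CPM in DKO-severe libraries (4.32 ± 0.65, adjusted p = 0.00119, then 1.48 ± 0.54, adjusted p = 0.0736).

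Sepn1, a selenoprotein of the endoplasmic reticulum now named Selenon, was at 4.01 to 6.19 CPM in WT, 4.60 to 8.39 CPM in DKO-moderate and 8.50 to 18.7 CPM in DKO-severe libraries. Of 11 other selenoprotein genes tested, 1 was higher and 3 were lower in DKO-severe than in WT, beside 26.6% and 25.9% of all genes. Sepp1 fell at both steps (-0.53 ± 0.15, adjusted p = 0.0345 and -0.93 ± 0.16, adjusted p = 0.00422). Trp53inp2, a protein that links nuclear receptors to autophagy, was at 1.14 to 3.41, 1.78 to 3.22 and 4.32 to 9.91 CPM. Its partner Gabarapl1, which is built into autophagosome membranes, rose at the first step (2.11 ± 0.40, adjusted p = 0.00415) and missed the threshold at the second (0.91 ± 0.38, adjusted p = 0.106). Armcx4, on the X chromosome, was at 3.09 to 4.31, 3.12 to 4.20 and 5.58 to 10.6 CPM. Of its 5 family members tested, 3 were lower in DKO-severe than in WT and 0 were higher, beside 25.9% and 26.6% of all genes.

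The limits cut through a continuous range, as the genes nearest to them show. Just above the 2-fold limit were Crat at 2.001, Vav2 at 2.03 and Adck3 at 2.05 times DKO-moderate, and just below it 9130023H24Rik at 1.996, Zbed3 at 1.96 and Hadh, an enzyme of fatty acid oxidation, at 1.96. At the upper DKO-moderate limit, Kif23 (1.245 times WT), Ccr8 (1.24) and Tirap (1.20) were inside and E2f2, a cell-cycle transcription factor (1.29), Crybg3 (1.29) and Mllt4 (1.30) outside. At the lower one, Ehbp1 (0.805), Clcn5 (0.824) and Vangl2 (0.858) were inside and Gda (0.773), Itpr1, a calcium channel of the endoplasmic reticulum (0.770), and Sowahc (0.732) outside. For the DKO-severe level, Smagp (5.04 CPM), Mybl1 (5.18 CPM) and Vangl2 (5.60 CPM) were inside and Dnahc11 (4.22 CPM), Slc22a4 (4.09 CPM) and Gpt2 (3.41 CPM) outside.

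On the limit of WT expression, Smagp (0.698 CPM), Mybl1 (0.977 CPM) and Trp53inp2 (2.38 CPM) were the lowest inside, and the neutrophil gene Ltf (0.0478 CPM in WT, 149 CPM in DKO-severe) was the only gene kept out by that limit alone. On separation, Slc6a6, Sepn1 and Kif23 were the closest inside, and Laptm4b, Mast4 and the macrophage gene Cd68 were the closest outside, with a lowest DKO-severe library at 0.907, 0.886 and 0.876 times the highest other library. The 28 genes lay on 15 chromosomes, with 4 each on chromosomes 1 and 2. The closest pair, Vav2 and Crat, were 2.97 Mb apart.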

How the data were processed

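The authors aligned reads to mm10 with STAR (2.7.11 in the submitters' processing notes), kept uniquely mapped reads and deposited raw counts per gene from HTSeq, set to reverse-stranded libraries. Groups and numbers came from the labels. CPM was computed over rows that name a gene (26608 genes, 29254260 to 42133536 reads a library). Comparisons used edgeR 4.0.16 in R 4.3.3, with genes of at least 10 reads summed over 1 condition, TMM, 1 quasi-likelihood fit over all 12 libraries and Benjamini-Hochberg adjustment over 16035 genes (threshold 0.05). Adjusted p-values in the text are from this fit. SE was computed as the absolute log2 fold change divided by the square root of the F statistic of its test. The fit was tested on simulated counts. DESeq2 1.42.0, other scalings, no filter, a replicate block and leaving out libraries were alternatives. Python 3.11.15 with pandas 2.3.3, numpy 2.4.6 and matplotlib 3.10.9 did the rest.

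The members and gene lists were chosen with earlier results of these data known. Named were members by level, ratio or list, those nearest each limit, and families of members. Paralogs and partners were listed by name and role after the members were known. All 28 members matched GENCODE vM21 (2 by an older symbol), and promoters came from RefSeq. The E2F, FOXO, cell-cycle and PU box motifs were added to the search later. Protein sequences were not used here.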

Additional observations from a re-analysis of the deposited data

Results flagged for a closer look

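Single libraries far from the other 3 of their group were searched for over the 28 genes and 3 groups by Dixon's test, 84 groups of values in all. It marked 6, and chance alone marks about 1 in 20. Itgam was at 11.9 CPM in WT 3, against 4.31 to 5.24 CPM in the other WT libraries, and at 12.1 CPM in DKO-moderate 2, against 4.91 to 5.22 CPM in the other DKO-moderate libraries. The monocyte and macrophage markers summed to 25.8, 54.99, 279 and 62.5 CPM in the WT and 127, 180, 89.2 and 193 CPM in the DKO-moderate libraries, highest in WT 3 and second highest in DKO-moderate 2, and their part in the Itgam values was not tested. Vangl2 was at 4.31 CPM in DKO-moderate 2, against 1.99 to 2.32 CPM in the others of that group. Brca2 was at 6.40 CPM in WT 2, against 7.84 to 8.05 CPM. Clcn5 was at 5.29 CPM in DKO-severe 3, against 6.54 to 6.72 CPM, and Smagp at 2.79 CPM in DKO-severe 2, against 5.51 to 6.05 CPM.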

How the results depend on the processing

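The set of 28 genes depended on its limits and on single libraries. The same limits gave 16 genes with TMM-scaled CPM and 24 with DESeq2's size factors. They gave 105 genes at a ratio of at least 1.5 and 5 at a ratio of at least 3, 13 with DKO-moderate held to at most 10% below and 11% above WT, 17 with a WT mean of at least 5 CPM and 63 when libraries were allowed to overlap. Leaving out 1 library gave 24 to 49 genes, the count moving by more than 1.5 times without DKO-moderate 2 (49) and without DKO-severe 2 (44). Without WT 3, DKO-severe 1 and DKO-severe 2, a choice made after seeing the data, there were 48. Of the 28, Arap2, Sept11, Snx9, Wdfy2 and Agpat4 met the limits without each library in turn.

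Genes called in the edgeR fit numbered 2734 in DKO-moderate against WT, 8428 in DKO-severe against WT and 3217 in DKO-severe against DKO-moderate. Leaving out 1 library gave 1616 to 2920, 7253 to 9006 and 1646 to 3670. The first count moved by more than 1.5 times without WT 1 (1616) or WT 2 (1707), and the third without DKO-moderate 1 (1646), DKO-moderate 3 (1815), DKO-severe 1 (1971), DKO-severe 3 (1997) or DKO-severe 4 (1989). With library sizes alone, the share of calls that were higher went from 72.2% to 81.2%, from 50.7% to 66.5% and from 46.9% to 64.9%. In DKO-severe against DKO-moderate it was 59.9% with DESeq2 and 59.6% with its size factors. A replicate block gave 2201, 7794 and 2321 calls. Samples with the same number did not deviate together (median correlation -0.03 over 12 pairs, 0.01 over 36 pairs with different numbers), so the numbers were not taken as pairs. Over 41 tests of named paralogs and partners under 17 other fits, 641 results kept their direction and their side of the threshold, 56 lost their call and 0 reversed. More calls are named above than these 41, so a call given without a count of lost fits may not have been checked. The causes were not tested. Depth limits Smagp and Mybl1 most, with WT counts down to 7 and 19 reads.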
